A study of Drosophila melanogaster with 16 samples.

Results

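Hemocytes are the blood cells of Drosophila, and 9 genes that mark their identity and their uptake of particles and dead cells were followed through RNA-seq counts of S2 cells. The genes were srp, ush, zfh1, lz, Hml, NimC1, eater, crq and drpr, taken by their FlyBase symbols from the 17737 genes of the count table. All 9 were matched and all 9 passed the filter on low counts in every comparison, although lz and NimC1 received few reads. The 16 libraries were made from ribosomal-depleted RNA of Schneider 2 (S2) cells, a line derived from embryos of Drosophila melanogaster, and their labels give a treatment and a month. The groups of December were 3 libraries of cells treated with PJ34, an inhibitor of PARP enzymes, at 10 µM for 16 h (PARPi), 3 of cells with a PARP knockdown by siRNA against PARP-1 (KD) and 3 of cells called wild type (WT). The groups of October were 4 KD and 3 WT libraries, with no PARPi library. All 5 groups share the cell line, the medium and the matching of growth time and density, and no label says whether WT cells received a control RNA or a vehicle, or how the months differed.

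S2 cells are commonly described as macrophage-like, and most of the 9 genes are known from the plasmatocyte, the macrophage of the fly. Blood cell fate in the fly embryo starts with the GATA transcription factor Serpent (srp), whose partner U-shaped (ush) modulates it, while the Runx factor Lozenge (lz) directs cells to the crystal cell fate, which carries the enzymes of melanization. Plasmatocytes make the clotting protein Hemolectin (Hml) and take up bacteria and apoptotic cells through receptors of the Nimrod family (NimC1, eater and drpr) and of the CD36 family (crq).

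Total counts per library ranged from 77671859 to 90439074 in December and from 58531662 to 78807134 in October. The transcript mt:lrRNA, the large mitochondrial ribosomal RNA, took 7.89% to 10.8% of the counts in December, 15.3% to 17.1% in KD of October and 9.84% to 12.4% in WT of October. Levels are given in CPM (counts relative to the library size, scaled by TMM over all 16 libraries), and levels of different genes are compared as CPM per kb of exon. Parp1, the gene targeted by the siRNA, averaged 165 ± 15.8 CPM in KD and 178 ± 12.2 CPM in WT in December (SD, n = 3 each), with a log2 fold change of -0.14 (edgeR adjusted p = 0.320). In October it averaged 75.1 ± 5.16 CPM in KD (SD, n = 4) and 83.4 ± 9.50 CPM in WT (SD, n = 3), a log2 fold change of -0.15 (edgeR adjusted p = 0.0962), which was called without KD replicate 3 (-0.19, 0.0392), without WT replicate 3 (-0.24, 0.00417), with no filter (-0.15, 0.0195) and with library sizes without the 20 highest-count genes (-0.22, 0.0155). Parp1 mRNA therefore did not check the KD label, and KD below means the libraries labelled KD. The authors report PARP1 depletion at the protein level by western blot, which these counts do not measure. Replicates are separate libraries by their labels, and since nothing says that they came from separate cultures, p-values measure the spread between libraries, which may be technical.

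How blood-cell-like the cells were could be read from the level of each gene in the untreated libraries. In WT of December the order per kb of exon was zfh1 (145 ± 10.6 CPM per kb), crq (72.4 ± 5.13), srp (36.4 ± 1.32), Hml (25.6 ± 4.02), ush (23.2 ± 1.60), drpr (2.97 ± 0.379), eater (2.05 ± 0.134), NimC1 (0.0127 ± 0.00256) and lz (0.0119 ± 0.00499), with SD over 3 libraries. Neighbours in this order did not overlap between libraries, except Hml with ush and NimC1 with lz. Of the 7428 genes with at least 1 CPM in these libraries, 93.0% lay below zfh1, 86.3% below crq, 75.3% below srp, 67.6% below Hml and 65.2% below ush. In December the transcription factors zfh1, srp and ush, the clotting protein and the CD36 receptor were thus in the upper part of the expressed genes. There drpr (15.4% below it) and eater (11.2%) were near the bottom, and NimC1 and lz lay under the level of 1 CPM. In WT of October crq came first (82.1 ± 3.13 CPM per kb), then zfh1 (64.0 ± 2.34), srp (20.002 ± 0.716), drpr (12.8 ± 0.413), ush (11.1 ± 0.526), eater (3.45 ± 0.511), Hml (1.33 ± 0.187), NimC1 (0.0549 ± 0.00663) and lz (0.0267 ± 0.0132), and no neighbours overlapped (SD, n = 3). Hml held the fourth place in December and the seventh in October, and drpr the sixth and the fourth. Of the 7777 genes with at least 1 CPM in WT of October, 89.4% lay below crq, 86.7% below zfh1 and 64.9% below srp. Near the middle were drpr (53.1% below it) and ush (49.0%), while eater (20.4%) and Hml (8.38%) were lower.

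**Figure D1:**
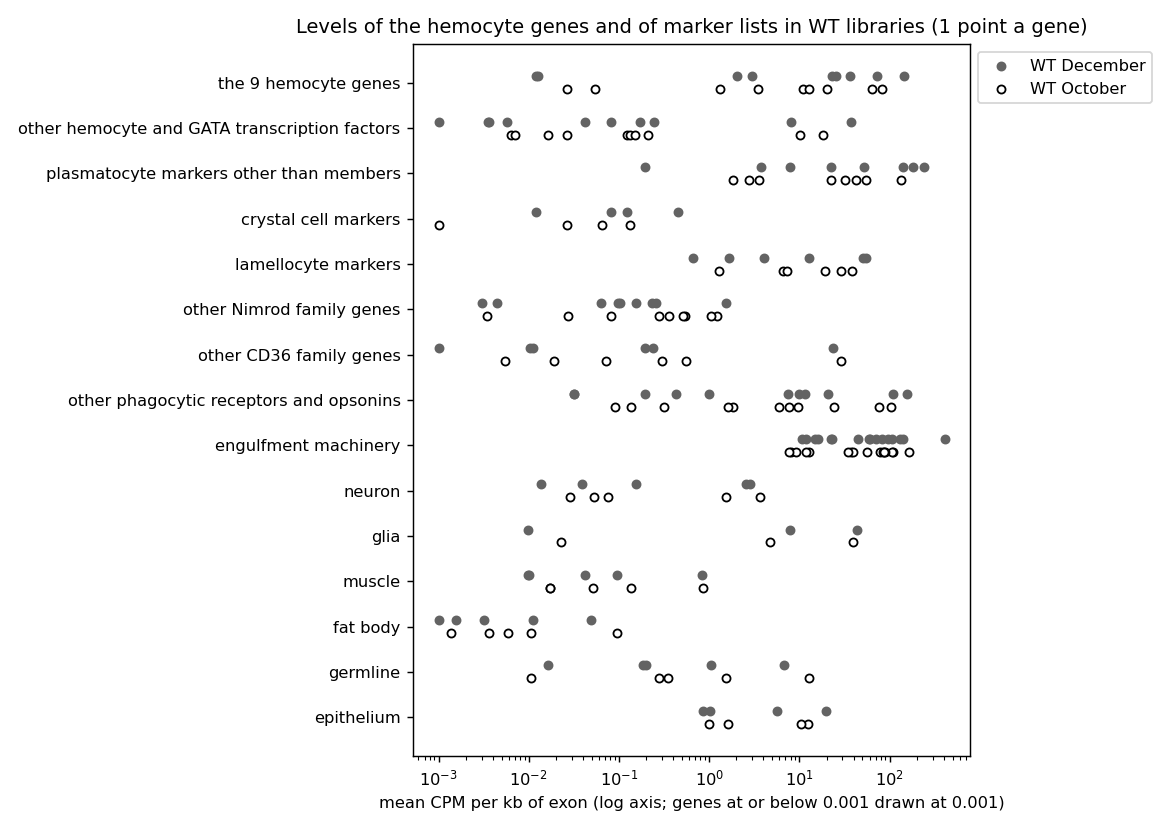
Mean level in the 3 WT libraries of December (filled points) and of October (open points) of each of the 9 hemocyte genes and of each gene of the marker lists, in CPM per kb of exon on a log axis. Among the 9 genes zfh1 and crq are at the right, and lz and NimC1 lie far to the left, below 0.1 CPM per kb in both months.

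The GATA factor srp (FBgn0003507) is found at 15986152 to 16004085 of chromosome 3R (plus strand, BDGP6 coordinates here and below). Its level was 226, 195 and 190.1 CPM in PARPi, 243, 196 and 220.3 CPM in KD and 220.4, 211 and 205 CPM in WT of December. In October it was 113, 121, 117 and 117 CPM in KD and 112, 120.1 and 118 CPM in WT. The treated and untreated libraries of each month overlapped, and every December library was above every October library. An annotated non-coding RNA on the same strand, lncRNA:CR44133, shares 938 exon bases with srp and was at about 1 CPM (1.02 CPM in WT of December and 1.24 CPM in WT of October), so reads in the shared part cannot be assigned.

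The cofactor ush (FBgn0003963), a Friend-of-GATA protein, lies on chromosome 2L from 476220 to 540560 on the plus strand. In December it was at 165, 134 and 145 CPM in PARPi, 172, 139.5 and 161 CPM in KD and 168, 150.4 and 148 CPM in WT. In October it was at 97.1, 96.6, 89.1 and 95.9 CPM in KD and 78.2, 72.6 and 71.7 CPM in WT. All 4 KD libraries of October lay above all 3 WT libraries of that month, whereas the December groups overlapped. Its exons share 524 bases with lncRNA:CR46258, at 3.60 CPM in WT of December and 0.729 CPM in WT of October, and the transcription factor gene cbt lies within an intron of ush on the other strand.

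The zinc-finger homeodomain factor zfh1 (FBgn0004606), which is expressed in the embryonic mesoderm and in hemocytes, lies on chromosome 3R from 30765926 to 30789202 on the plus strand. It was at 984, 812 and 867 CPM in PARPi, 1066, 835 and 983 CPM in KD and 1073, 1001 and 926 CPM in WT of December, and at 465, 499, 478 and 475 CPM in KD and 449, 454 and 424 CPM in WT of October. The December values were in all cases above the October ones, and the KD libraries of October were above the WT libraries of that month. An antisense RNA, asRNA:CR45189, shares 315 exon bases with zfh1 and was at 0.689 CPM in WT of December and 1.62 CPM in WT of October.

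The crystal cell factor lz (FBgn0002576; chromosome X, 9284649 to 9303636, plus strand) was read at the limit of detection. Its raw counts were 5, 2 and 3 in PARPi, 4, 4 and 3 in KD and 2, 5 and 3 in WT of December, and 10, 7, 4 and 10 in KD and 7, 9 and 3 in WT of October. No group stood apart at this depth.

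Hml (FBgn0029167), the large secreted clotting protein that serves as the usual plasmatocyte marker in larvae, lies on chromosome 3L from 13846054 to 13860001 on the plus strand and overlaps no annotated exon. It was at 307, 271 and 312 CPM in PARPi, 245, 213 and 239 CPM in KD and 356, 274 and 274 CPM in WT of December. In October it was at 15.8, 11, 11.9 and 14.3 CPM in KD and 14.2, 14.6 and 18.2 CPM in WT. All 3 KD libraries of December lay below all 3 WT libraries of that month, the PARPi libraries overlapped the WT libraries, with 1 of them below the lowest WT library, and the months were separated by more than the width of any group. From its lowest to its highest library Hml spanned 32.4-fold, more than any other of the 9 genes (crq, the narrowest, spanned 1.32-fold).

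**Figure D2:**
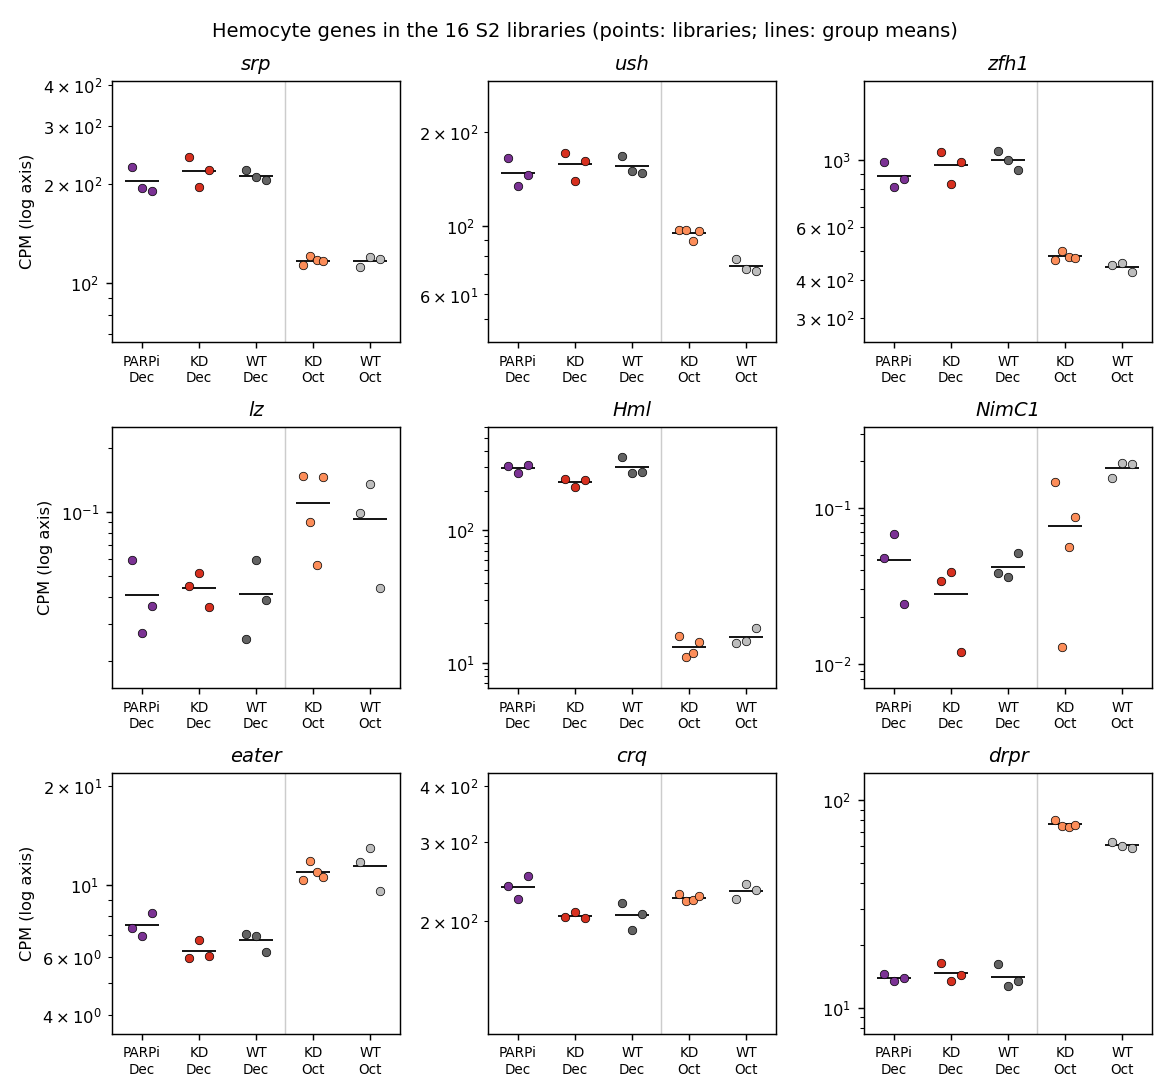
Level of each of the 9 genes in each of the 16 libraries, in CPM on a log axis whose range differs between panels, with groups as PARPi, KD and WT of December and KD and WT of October (points are libraries, lines are group means). The December libraries of srp, ush, zfh1 and Hml all lie above the October libraries, and those of eater and drpr all lie below.

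NimC1 (FBgn0259896; chromosome 2L, 13973158 to 13976769, minus strand) encodes a Nimrod receptor that is the P1 antigen of larval plasmatocytes. Its raw counts were 4, 5 and 2 in PARPi, 3, 3 and 1 in KD and 3, 3 and 4 in WT of December, and 10, 1, 4 and 6 in KD and 11, 13 and 13 in WT of October. Only the WT libraries of October had more than 10 counts each.

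eater (FBgn0243514; chromosome 3R, 27095867 to 27099679, minus strand), a Nimrod receptor that binds bacteria and serves in the attachment of larval hemocytes, was at 7.40, 6.95 and 8.18 CPM in PARPi, 5.97, 6.77 and 6.06 CPM in KD and 7.06, 6.97 and 6.25 CPM in WT of December. It was at 10.3, 11.8, 10.9 and 10.5 CPM in KD and 11.7, 12.9 and 9.58 CPM in WT of October. The lowest October library lay above the highest December library. Like lz, Hml and NimC1, eater overlaps no other annotated exon.

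crq (FBgn0015924; chromosome 2L, 448254 to 453024, minus strand) encodes Croquemort, the CD36-family receptor for apoptotic cells of embryonic macrophages. It was at 239, 224 and 252 CPM in PARPi, 205, 209 and 203 CPM in KD and 220.1, 191 and 208 CPM in WT of December, and at 229.5, 222, 223 and 227 CPM in KD and 224, 242 and 235 CPM in WT of October. The PARPi libraries were above all WT libraries of December, and crq was the gene whose level was most alike between the months. Its exons share 448 bases with the gene ex on the other strand, which was at 149 CPM in WT of December and 61.2 CPM in WT of October, and no source used here gives the strand setting of the counting.

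drpr (FBgn0027594; chromosome 3L, 1715595 to 1731107, minus strand) encodes Draper, the receptor with which glia and macrophages engulf dying cells and neuronal debris. It was at 14.6, 13.4 and 13.8 CPM in PARPi, 16.4, 13.5 and 14.4 CPM in KD and 16.1, 12.7 and 13.5 CPM in WT of December. In October it was at 79.9, 75.5, 74.0 and 76.3 CPM in KD and 62.7, 60.4 and 58.9 CPM in WT. The highest December library was thus far below the lowest October library, and in October all KD libraries lay above all WT libraries. Its exons share some bases with Oseg4, which was below 0.1 CPM in all groups.

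Whether inhibition of PARylation changed the hemocyte genes was tested over the 9 December libraries with edgeR's quasi-likelihood test, with p-values adjusted over all genes. No gene of the 9 was called in PARPi vs. WT, where 0.290% of the 11729 genes tested were called, 0.153% higher and 0.136% lower. Of the calls 52.9% were higher under TMM and 79.2% with library sizes without the 20 highest-count genes. The median log2 fold change of the 9 was -0.023, beside -0.0099 for all genes. The largest shift among the well-read genes was that of crq, at 238 ± 14.3 CPM in PARPi and 206 ± 14.6 CPM in WT (SD, n = 3 each), with a log2 fold change of 0.20 (standard error 0.070), an unadjusted p of 0.0078 and an adjusted p of 0.239 (edgeR). Its groups did not overlap, which held for 14.7% of all genes tested. zfh1 had a log2 fold change of -0.18 (unadjusted p = 0.0479, adjusted p = 0.425, edgeR), with overlapping groups. These were the 2 genes of the 9 with an unadjusted p below 0.05, and DESeq2 called none of the 7 for which it gave an adjusted p, which left out lz and NimC1. For Hml the fold of PARPi over WT was 0.982 with a 95% interval from 0.867 to 1.11, and for drpr it was 0.984 with an interval from 0.868 to 1.12, whereas the counts of lz (10 in PARPi and 10 in WT) and NimC1 (11 and 10) leave ratios from 0.372 to 2.67 and from 0.423 to 2.88, which cover counting error only.

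In KD vs. WT of December Hml fell and no other of the 9 genes was called. Hml averaged 232 ± 16.6 CPM in KD and 301 ± 47.3 CPM in WT (SD, n = 3 each), a fold of 0.758 with a 95% interval from 0.669 to 0.859. Its log2 fold change was -0.40 (standard error 0.087, edgeR adjusted p = 0.00619). Of all genes tested 7.73% were called, 2.08% higher and 5.65% lower, and 25.6% had groups that did not overlap, so that 1 call among 9 genes is near this background. DESeq2 also called Hml, as did the fits without each of the 9 libraries in turn. The call was lost when library sizes were computed without the 20 genes with the most counts (log2 fold change -0.28, edgeR adjusted p = 0.0665), a scaling that set the median of all genes at 0.14 in place of 0.015 and under which 79.1% of the calls among all genes were higher, against 26.9% under TMM. Relative to that median the change of Hml was -0.42 under this scaling and -0.41 under TMM. The transcription factors had log2 fold changes close to 0, with 0.022 for srp, -0.0067 for ush and -0.084 for zfh1, and the receptors were at -0.13 for eater, -0.029 for crq and 0.039 for drpr, with adjusted p between 0.509 and 0.979 for these 6 genes (edgeR). NimC1, with 7 counts in KD and 10 in WT, and lz, with 11 and 10, were not called. Their counts leave ratios from 0.217 to 1.96 for NimC1 and from 0.407 to 2.77 for lz, for counting error only. Changes within these ranges could not be shown at this depth. Since the RNA came from whole cultures, fewer cells with a transcript and less of it in each cell cannot be told apart here or below.

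In KD vs. WT of October 2 of the 9 genes were called, both higher, where 27.8% of the 12096 genes tested were called, 13.8% higher and 14.0% lower (27.2% of the calls were higher with library sizes without the 20 highest genes, against 49.5% under TMM). ush averaged 94.7 ± 3.77 CPM in KD (n = 4) and 74.1 ± 3.52 CPM in WT (n = 3), a fold of 1.28 (95% interval 1.19 to 1.37). Its log2 fold change was 0.36 (standard error 0.049, edgeR adjusted p = 1.53e-05). drpr averaged 76.4 ± 2.52 CPM in KD (n = 4) and 60.7 ± 1.97 CPM in WT (n = 3), a fold of 1.26 (95% interval 1.18 to 1.35). Its log2 fold change was 0.34 (standard error 0.047, edgeR adjusted p = 1.86e-05). Both calls stood in every alternative fit, and the GATA factor itself, srp, was at 117 ± 2.96 CPM in KD and 117 ± 4.17 CPM in WT, a fold of 1.0 with a 95% interval from 0.941 to 1.07.

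The other genes of October were not called. zfh1 had a log2 fold change of 0.12 (adjusted p = 0.0632 by edgeR and 0.0260 by DESeq2, which called it). Hml averaged 13.2 ± 2.21 CPM in KD (n = 4) and 15.7 ± 2.19 CPM in WT (n = 3), a log2 fold change of -0.24 (standard error 0.10, edgeR adjusted p = 0.0903). Its groups overlapped, and it was called without KD replicate 1 (-0.34, edgeR adjusted p = 0.0169), without WT replicate 1 (-0.31, 0.0323), without a filter on low counts (-0.24, 0.00481) and with library sizes without the 20 highest genes (-0.31, 0.0196). NimC1 had 21 counts in 4 KD libraries and 37 in 3 WT libraries, a ratio of 0.409 with an exact 95% interval from 0.227 to 0.717 for counting error alone. Its groups did not overlap, which held for 33.0% of all genes tested, and its log2 fold change of -1.25 was not called (edgeR adjusted p = 0.163).

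The difference between the months in the KD effect was tested as an interaction over the 13 WT and KD libraries. It was called for ush and drpr, where 14.1% of the 12652 genes tested were called, 5.77% higher and 8.33% lower. For ush the log2 fold change in December minus that in October was -0.38 (standard error 0.089, edgeR adjusted p = 0.00364). For drpr it was -0.31 (standard error 0.10, edgeR adjusted p = 0.0328). The rise of ush and drpr in KD of October thus differed from the values near 0 of December under TMM scaling. With library sizes without the 20 highest genes neither was called (ush -0.16, edgeR adjusted p = 0.254, and drpr -0.098, edgeR adjusted p = 0.578), while the median of all genes moved to 0.18 in place of -0.034 and 88.0% of the calls among all genes were higher, against 40.9% under TMM, and relative to the median ush was at -0.34 under both scalings and drpr at -0.28. For Hml the interaction was -0.18 (edgeR adjusted p = 0.458), so that its fall in December was not shown to differ from its value in October. mt:lrRNA took a larger share of counts in KD than in WT in October (15.3% to 17.1% in KD and 9.84% to 12.4% in WT) and a smaller one in December (7.89% to 9.09% in KD and 9.12% to 10.7% in WT), and its part in these values was not tested.

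The interaction of drpr was also lost without any 1 of 7 libraries. The values were -0.21 without KD replicate 2 of December (edgeR adjusted p = 0.196), -0.29 without KD replicate 3 of December (0.0830), -0.21 without WT replicate 1 of December (0.144), -0.29 without KD replicate 1 of October (0.0593), -0.32 without KD replicate 4 of October (0.0522), -0.31 without WT replicate 2 of October (0.0656) and -0.29 without WT replicate 3 of October (0.0757). That of ush remained called without each library. zfh1, at -0.22 (edgeR adjusted p = 0.118), was called only without KD replicate 1 of December (-0.29, 0.0386).

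**Figure D3:**
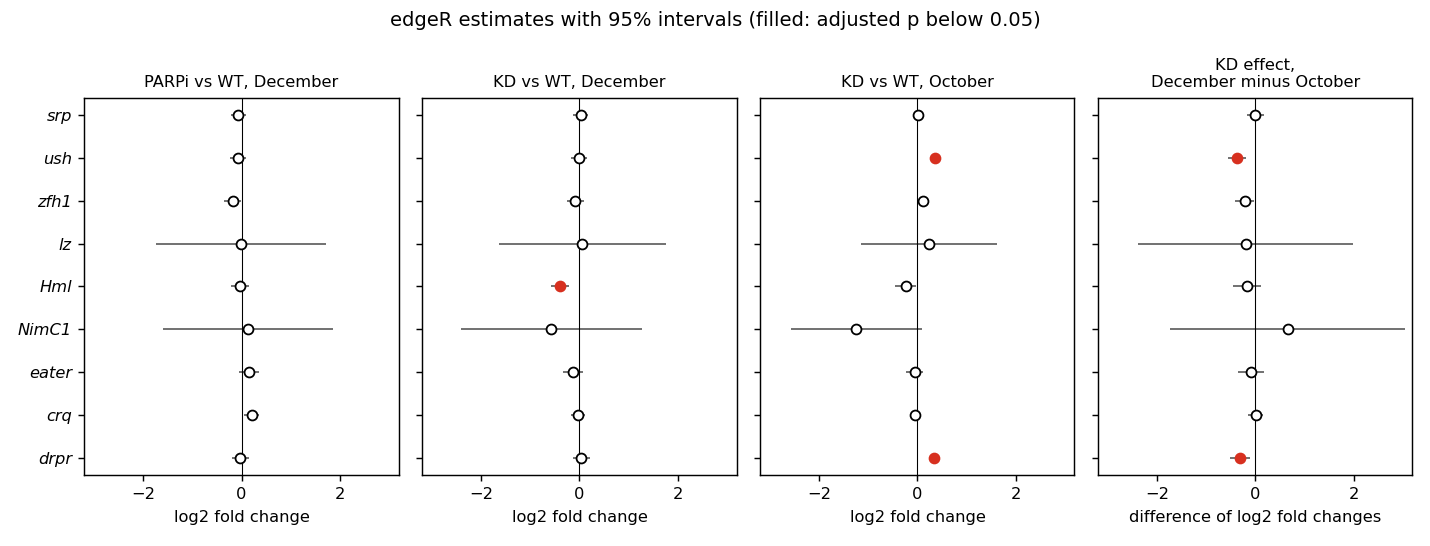
Log2 fold changes of the 9 genes with 95% intervals from edgeR for PARPi vs. WT and KD vs. WT of December, KD vs. WT of October and the difference of the 2 KD effects (December minus October). Filled points have an adjusted p below 0.05, which holds for Hml in December (-0.40), for ush and drpr in October (0.36 and 0.34) and for ush and drpr in the difference (-0.38 and -0.31), and the wide intervals belong to lz and NimC1.

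In WT of December vs. WT of October 8 of the 9 genes were called, 4 higher and 4 lower, in a comparison in which 61.4% of the 12652 genes tested were called, 30.3% higher and 31.1% lower, and 65.7% had groups that did not overlap. A count of 8 in 9 is read against this background, in which month, culture and library preparation cannot be told apart. The median log2 fold change of the 9 was -0.16, beside -0.097 for all genes. The calls were made over the 13 WT and KD libraries, whose KD members add to the estimate of the spread.

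Hml rose in December to 301 ± 47.3 CPM, against 15.7 ± 2.19 CPM in October (SD, n = 3 each), a fold of 19.5 with a 95% interval from 16.6 to 22.9. Its log2 fold change was 4.28 (standard error 0.11, edgeR adjusted p = 4.03e-23). None of the 7744 genes with a mean of at least 1 CPM had a larger rise than Hml, and 15 of them had a larger change in either direction, all of them falls. Among all 12652 genes tested, many with few counts, Hml had rank 43 in rise, and 277 had a larger change in size. The transcription factors were higher by less. zfh1 averaged 1000 ± 73.4 CPM in December and 442 ± 16.2 CPM in October, a fold of 2.29 (95% interval 2.08 to 2.52), ush 155 ± 10.7 and 74.1 ± 3.52 CPM, a fold of 2.12 (1.93 to 2.33), and srp 212 ± 7.69 and 117 ± 4.17 CPM, a fold of 1.84 (1.69 to 2.01). Their adjusted p was between 1.05e-15 (zfh1) and 8.23e-14 (srp) by edgeR.

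Of the phagocytic receptors drpr and eater ran the other way, as did NimC1 at few counts. drpr averaged 14.1 ± 1.80 CPM in December and 60.7 ± 1.97 CPM in October, a fold of 0.235 (95% interval 0.212 to 0.262). eater averaged 6.76 ± 0.443 CPM in December and 11.4 ± 1.69 CPM in October, a fold of 0.601 (0.523 to 0.689). NimC1 had 10 counts in December and 37 in October, a ratio of 0.232 with an exact 95% interval from 0.103 to 0.475 for counting error. crq differed least, with 206 ± 14.6 CPM in December and 234 ± 8.91 CPM in October, a fold of 0.894 (0.824 to 0.970). Relative to the median of all genes crq was at -0.066, and 84.6% of the genes tested had a larger change in size. The 4 adjusted p were 2.47e-20 for drpr, 8.74e-08 for eater, 0.0190 for NimC1 and 0.0156 for crq by edgeR, and lz was not called (10 and 19 counts, log2 fold change -1.11, adjusted p = 0.216).

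The calls of NimC1 and crq did not stand in every alternative fit. NimC1 was lost without WT replicate 1 of December (-1.99, edgeR adjusted p = 0.0522), without WT replicate 2 of December (-1.95, 0.0574) and without WT replicate 2 of October (-1.99, 0.0506). crq was lost without WT replicate 2 of December (-0.11, edgeR adjusted p = 0.133), without WT replicate 2 of October (-0.13, 0.0811) and in a fit of the 6 WT libraries alone (-0.15, 0.0538). With library sizes without the 20 highest genes the median of all genes was -0.46 and 24.2% of the calls among all genes were higher, against 49.4% under TMM. All 8 genes were called in the same direction there, with srp at 0.98, ush at 1.18 and drpr at -1.99 relative to the median under both scalings.

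**Figure D4:**
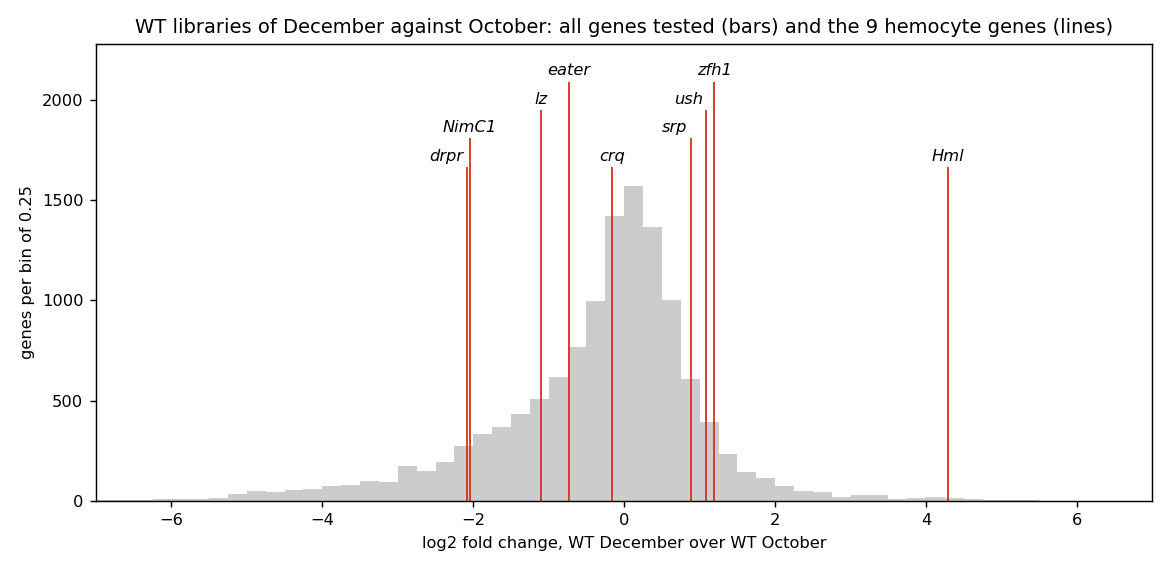
Number of genes per bin of 0.25 in log2 fold change of WT of December over WT of October for the genes tested (bars, drawn between -7 and 7) and the value of each of the 9 hemocyte genes (lines). Hml, at 4.28, stands furthest to the right of the 9, zfh1, ush and srp are near 1, and drpr and NimC1 are near -2.

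Other genes of the plasmatocyte were read from lists written by hand. Of 8 further plasmatocyte markers, 6 were higher and 2 lower in WT of December vs. WT of October, where 30.3% of all genes tested were higher and 31.1% lower, with a median log2 fold change of 1.20 (the same counts and a median of 0.83 with library sizes without the 20 highest genes). Glt, which encodes the basement membrane glycoprotein glutactin, averaged 75.3 ± 2.61 CPM in December and 11.9 ± 2.33 CPM in October (log2 fold change 2.67, edgeR adjusted p = 4.39e-21), and the collagen IV chains vkg and Col4a1 were at 1.72 and 0.86. He (Hemese), a surface protein of hemocytes, went the opposite way, with 2.50 ± 0.0400 CPM in December and 15.2 ± 0.669 CPM in October (log2 fold change -2.58, edgeR adjusted p = 4.72e-18), as did the scavenger receptor Sr-CI, with 0.433 ± 0.0607 and 3.996 ± 0.313 CPM (-3.18, 2.97e-16). The plasmatocyte markers therefore did not move as 1 block between the months.

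In KD vs. WT of December 2 of these 8 markers were called, both lower, beside 7.73% of all genes. He averaged 1.52 ± 0.215 CPM in KD and 2.50 ± 0.0400 CPM in WT (log2 fold change -0.74, edgeR adjusted p = 0.00578), and it was not called without KD replicate 3 (-0.65, 0.0613). Glt averaged 55.4 ± 4.41 CPM in KD and 75.3 ± 2.61 CPM in WT (-0.47, edgeR adjusted p = 0.00131). In KD vs. WT of October 2 were higher and 2 lower, beside 13.8% and 14.0% of all genes. With library sizes without the 20 highest genes 1 was higher and 4 lower, with Sr-CI (-0.35, edgeR adjusted p = 0.0171) and Tig (-0.20, 0.00254) also called. He fell there too, to 5.80 ± 0.965 CPM in KD (n = 4), against 15.2 ± 0.669 CPM in WT (n = 3), with a log2 fold change of -1.38 (edgeR adjusted p = 1.59e-09), while Glt rose, at 23.4 ± 0.889 CPM in KD and 11.9 ± 2.33 CPM in WT (0.98, edgeR adjusted p = 8.00e-08). The KD effect on Glt differed between the months by -1.46 (edgeR adjusted p = 6.47e-10) and that on He by 0.62 (edgeR adjusted p = 0.0115). Ppn rose and Col4a1 fell in KD of October (0.23 and -0.16), with adjusted p of 0.00590 and 0.0115 (edgeR), where Ppn was not called with library sizes without the 20 highest genes (0.16, 0.0686), and no marker of this list was called in PARPi.

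The families of the receptors were read beside them. Of the 9 other Nimrod genes 8 had enough counts to be tested between the months, and 1 was higher and 5 lower in WT of December, with a median log2 fold change of -1.90 and the background of 30.3% higher and 31.1% lower. NimC4, the Nimrod receptor with which embryonic macrophages and glia take up apoptotic cells, was the higher one, with 1.96 ± 0.267 CPM in December and 0.355 ± 0.0613 CPM in October (2.47, edgeR adjusted p = 5.56e-11). NimB2 stood for the lower ones, with a log2 fold change of -2.38 (edgeR adjusted p = 2.25e-11). In KD of October NimB5, a secreted Nimrod protein, was lower, at 0.783 ± 0.120 CPM in KD and 1.46 ± 0.217 CPM in WT (-0.89, edgeR adjusted p = 0.00146), and NimC4, named here after its value was seen, was higher, at 0.656 ± 0.137 and 0.355 ± 0.0613 CPM (0.89, edgeR adjusted p = 0.0246). The KD effect on NimC4 differed between the months (interaction -1.10, called in 19 of 19 alternative fits). After drpr and eater NimC4 had the highest mean of the family over the 16 libraries, 1.30 CPM.

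In the CD36 family crq and pes, a receptor in the uptake of mycobacteria, were the genes with the highest levels, with pes at 101 CPM on average. Of the 5 other members tested between the months 3 were lower in WT of December (emp at -1.17 and pes at -0.28) and none was higher, beside 31.1% of all genes lower. Among 11 other phagocytic receptors and opsonins, against the same background, 4 were higher and 5 lower, with a median of 0.077 (3 higher and 6 lower, with a median of -0.29, with library sizes without the 20 highest genes). In KD of October 3 of these 11 were higher and 1 lower, and with library sizes without the 20 highest genes 2 were higher and 3 lower. Itgbn, a beta integrin subunit, fell to 4.24 ± 0.294 CPM in KD, against 5.42 ± 0.563 CPM in WT (-0.35, edgeR adjusted p = 0.0107), a call lost without WT replicate 3 (-0.27, 0.0760). The thioester protein gene Tep4 rose (147 ± 7.88 CPM in KD and 118 ± 3.93 CPM in WT, log2 fold change 0.31, edgeR adjusted p = 6.69e-05), and Tep2 rose by more (550.3 ± 29.6 and 398 ± 3.54 CPM, 0.47, edgeR adjusted p = 5.81e-07). The KD effect on Tep2 differed between the months (interaction -0.39, called in 18 of 19 alternative fits). Of the 5 other CD36 genes tested 2 were lower and none higher in KD of October, beside 14.0% of all genes lower. Among them pes was at -0.15 (called in 9 of 13 alternative fits), with an interaction of 0.32 (19 of 19).

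**Figure D5:**
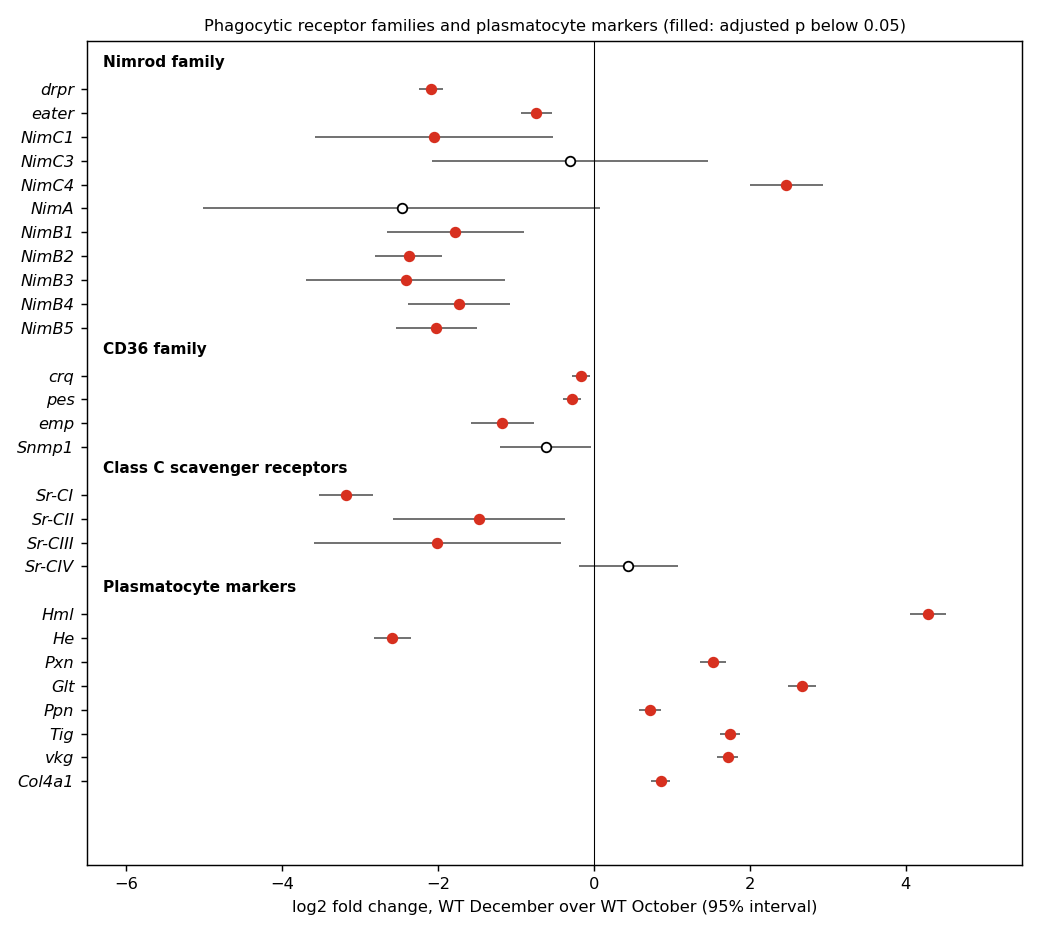
Log2 fold change of WT of December over WT of October with its 95% interval from edgeR for the Nimrod, CD36 and class C scavenger receptor families and for plasmatocyte markers (filled points have an adjusted p below 0.05). Most Nimrod genes lie left of 0 with drpr (-2.09), NimC4 lies right (2.47), and among the plasmatocyte markers Hml (4.28) and Glt (2.67) lie right while He (-2.58) lies left.

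The machinery downstream of the receptors was read at moderate to high levels, and all 16 of its listed genes had a mean of at least 1 CPM. Between the months 12 of them were higher and 2 lower in WT of December, beside 30.3% and 31.1% of all genes, with a median log2 fold change of 0.35. CaBP1, a protein disulfide isomerase that was described on apoptotic fly cells, was at 726 ± 46.5 CPM in December and 290.4 ± 19.4 CPM in October (1.34, edgeR adjusted p = 1.53e-17), and mbc, part of the Rac activator of myoblasts and macrophages, was at 172 ± 27.1 and 68.8 ± 13.2 CPM (1.34, edgeR adjusted p = 2.79e-13). The adaptor ced-6 and the kinase Shark, which act with Draper, were higher by 0.47 and 0.64 (edgeR adjusted p = 9.75e-09 and 1.05e-09), in libraries in which drpr was lower. The count of the list depended on the scaling, since with library sizes without the 20 highest genes 4 were higher and 6 lower, with a median of -0.017, CaBP1 and mbc at 0.97 and 0.98 and ced-6 no longer called (0.11, edgeR adjusted p = 0.0809). In KD of October, where 13.8% of all genes were higher and 14.0% lower, 5 of the 16 were higher and 1 lower. Among them were Shark (29.2 ± 2.08 CPM in KD and 24.3 ± 1.26 CPM in WT, 0.27, edgeR adjusted p = 0.00237) and CaBP1 (0.23, edgeR adjusted p = 0.00153). The largest rise was that of mbc (0.29), which was called in 10 of 13 alternative fits. Under the same other scaling 2 were higher, Shark (0.19, 0.0267) and CaBP1 (0.16, 0.0317), and 2 lower. In KD of December, where 7.73% of all genes were called and 5.65% were lower, 1 of the 16 was called, lower (Crk, -0.31, edgeR adjusted p = 0.0204). Crk was not called without KD replicate 1 (-0.25, edgeR adjusted p = 0.157), KD replicate 3 (-0.30, 0.135), WT replicate 2 (-0.29, 0.106) or WT replicate 3 (-0.31, 0.101), nor with library sizes without the 20 highest genes (-0.19, 0.108). The interaction was called, lower, for 3 of the 16, beside 8.33% of all genes lower. These were Shark, Crk and ced-6, called in 11, 12 and 18 of 19 alternative fits. With library sizes without the 20 highest genes 5 of the 16 were higher and 0 lower in the interaction.

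Genes of the other blood cell fates were low or mixed. Of the crystal cell markers the prophenoloxidase gene PPO1 was at 1.04 ± 0.119 CPM in WT of December and 0.150 ± 0.0556 CPM in WT of October. PPO2 had 6, 36 and 26 counts in WT of December and 0 in each WT library of October, where 0 counts allow up to 3 per library. The lz gene itself and peb, a zinc-finger factor, were below 1 CPM. PPO1, named here after its values were seen, was the only one of the 4 called in KD of December, where 7.73% of all genes were called and 5.65% were lower. It was at 0.574 ± 0.258 CPM in KD, against 1.04 ± 0.119 CPM in WT (-0.88, edgeR adjusted p = 0.0303). With library sizes without the 20 highest genes PPO1 was not called (-0.76, 0.0585).

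All 6 lamellocyte markers reached 1 CPM on average. The highest of them were msn and cher, a kinase and the fly filamin, which many cell types express. Between the months 2 were higher and 4 lower in WT of December (1 and 4 with library sizes without the 20 highest genes), beside 30.3% and 31.1% of all genes. The surface antigen gene atilla was at 1.40 ± 0.0530 CPM in December and 5.45 ± 0.673 CPM in October (-1.94, edgeR adjusted p = 9.18e-14), and in KD of October it was at 2.66 ± 0.158 CPM, against 5.45 ± 0.673 CPM in WT (-1.03, edgeR adjusted p = 5.18e-07). In KD of October 2 markers were higher and 2 lower, beside 13.8% and 14.0% of all genes, or 1 and 3 with library sizes without the 20 highest genes. cher rose to 314 ± 11.1 CPM in KD, against 271 ± 8.88 CPM in WT (0.21, edgeR adjusted p = 0.00159).

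Among 10 other transcription factors of blood cells and of the GATA family only pnr and GATAd had a mean of at least 1 CPM. pnr, a GATA factor of the dorsal ectoderm and heart, was at 161 ± 4.01 CPM in WT of December and 79.7 ± 6.38 CPM in WT of October (1.04, edgeR adjusted p = 1.88e-15), and GATAd was lower by 0.34 (edgeR adjusted p = 7.90e-05). GATAd was also called in KD of October (-0.32, edgeR adjusted p = 0.000266). The KD effect on GATAd differed between the months (interaction 0.48, called in 19 of 19 alternative fits). The factor gcm, which specifies embryonic plasmatocytes as well as glia, had 0 to 6 counts per library.

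Markers of other cell types were measured beside the blood cell genes. The glial factor repo had 0 to 7 counts per library, whereas nrv2, which encodes a subunit of the sodium pump, was at 150.4 CPM on average, and the summed level of the 3 glial genes was 183 to 191 CPM in WT of December and 153 to 161 CPM in WT of October. Of the neuron list 3 of 5 genes reached 1 CPM (summed level 63.7 to 72.4 CPM in WT of December and 59.5 to 66.6 CPM in WT of October), among them elav and brp. The fat body genes summed to 0.399 to 0.791 CPM and 1.05 to 1.31 CPM and the muscle genes to 2.54 to 3.13 CPM and 2.50 to 3.31 CPM in WT of December and WT of October. The germline list summed to 13.1 to 14.8 CPM in WT of December and 24.6 to 26.5 CPM in WT of October, mostly from the innexin gene zpg, and the epithelial list to 119 to 134 CPM and 102 to 106 CPM. Of the 4 epithelial genes 1 was higher in WT of December, Nrx-IV (0.66), which carried most of that sum, and 2 were lower, shg (-0.89) and sinu (-0.88), beside 30.3% and 31.1% of all genes. The 9 hemocyte genes themselves summed to 1781 to 2060 CPM in WT of December and 935 to 977 CPM in WT of October. Of this sum zfh1 alone made up 1000 CPM in December and 442 CPM in October on average. All these sums are in CPM, not per kb, and the lists differ in size. The same lists also held calls in KD. In KD of December zpg (0.30, edgeR adjusted p = 0.0272) and shg, which encodes E-cadherin (0.36, 0.0486), were higher, and of 16 alternative fits zpg was called in 11 and shg in 9. In KD of October sinu (-0.36, edgeR adjusted p = 0.000807) and shg (-0.23, 0.0280) were lower and the myosin light chain gene Mlc2 (0.49, 0.00786) was higher, and of 13 alternative fits sinu was called in 13, shg in 9 and Mlc2 in 12. The interaction was called for shg (0.58, edgeR adjusted p = 0.00413), sinu (0.37, 0.0185), zpg (0.38, 0.00753) and Mlc2 (-0.77, 0.0109), of which Mlc2 was lost with library sizes without the 20 highest genes (-0.55, 0.0550) and sinu without WT replicate 3 of October (0.32, 0.0628). In the fat body list, where no gene had a mean of 1 CPM over the 16 libraries, 1 of 4 genes tested was also called in the interaction, higher. Of all genes 5.77% were called higher there. No gene of the neuron or glia list was called in KD of either month under TMM, and no gene of these lists was called in PARPi. The part of other cell types in the differences between the months or between KD and WT was not tested. The direction of nrv2 between the months turned with the scaling (log2 fold change 0.19 under TMM and -0.17 with library sizes without the 20 highest genes, edgeR adjusted p = 0.00236 and 0.00803).

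The genes whose level followed each hemocyte gene most closely over the 16 libraries were found from log2 CPM after the mean of each month was taken off, among 7711 genes with a mean of at least 1 CPM. The highest Pearson r was 0.97 for ush with l(2)k05819 and with CG8858, 0.95 for drpr with Tep4, 0.95 for zfh1 with rhea and 0.92 for srp with NAT1. It was 0.91 for crq with orion, 0.91 for Hml with Rab26 and 0.79 for eater with conu. These values describe libraries that share depth and scaling within a group, and lz and NimC1 were left out since they had fewer than 10 counts in some libraries.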

How the data were processed

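Ribosomal-depleted RNA of S2 cells was sequenced in paired ends. The authors aligned untrimmed reads to BDGP6 with STAR 2.6 and counted them by gene with HTSeq 0.10.0, and the raw counts they deposited are integers to which no scaling was applied. FastQC 0.10.1 and DESeq2 are also named in the submitters' processing notes. No source used here gives the annotation release, the strand setting or the handling of reads with more than 1 match, and counts of overlapping genes are uncertain for that reason. The table holds 17737 genes. Symbols, positions and exon lengths came from the Ensembl annotation of BDGP6 (17599 identifiers matched). The columns of the authors' table were matched to the libraries by their titles.

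Genes needed a sum of at least 10 counts over the libraries that entered a fit. They were scaled by TMM and tested by the quasi-likelihood test of edgeR 4.0.16 under R 4.3.3, and p-values were adjusted by Benjamini-Hochberg over all genes (threshold 0.05). PARPi and KD of December were compared with WT in 1 model of 9 libraries, KD of October in 7 libraries, and the interaction and the months in 13 libraries. Ratios of counts have exact conditional 95% intervals. CPM for display used TMM over 16 libraries, and exon length in units of 1000 bases. Total counts of 58531662 to 90439074 per library make 3 counts worth 0.0339 to 0.0450 CPM, and intervals of counts cover counting error only. Each library was used as 1 replicate, since libraries of a group were further apart than counting noise allows (chi-square per gene 7.82 to 142).

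The 9 genes and the lists of markers were chosen with earlier results of these data known. Beyond the 9 genes and Parp1, most named genes were drawn from a set fixed by rule. It held the 2 genes of each list with the highest level per kb and up to 3 called genes with the largest change in a comparison at a mean of at least 1 CPM. It also held the genes that overlap one of the 9 and the 2 genes with the highest Pearson r with each. Not every gene of this set is named in the text. Other genes of the lists are named where a count or a figure needs them. Alternatives were DESeq2 1.42.0, RLE size factors, library sizes without the 20 highest-count genes, no filter, filterByExpr, a fit of the compared groups alone, a block for the replicate number and leaving out each library. The scripts were tested on simulated data.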

Additional observations from a re-analysis of the deposited data

Results flagged for a closer look

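The KD effect on ush differed between the months, with a difference of log2 fold changes (December minus October) of -0.38 (edgeR adjusted p = 0.00364). That on drpr differed by -0.31 (edgeR adjusted p = 0.0328). Neither was called with library sizes computed without the 20 genes with the most counts. Of the 4 KD libraries of October, replicate 3 had the lowest ush level, 89.1 CPM, apart from the other 3 by more than Dixon's 95% limit. Of the 9 genes in the 1 group of 4 libraries, ush was the only one with such a library. Chance gives about 1 in 20 for each gene, so that 1 among 9 genes is not unusual.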

How the results depend on the processing

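The replicate numbers of the titles were checked by the correlation of same-numbered treated and WT libraries' deviations from their group means. It ran from -0.036 to 0.23 for KD and -0.0044 to 0.14 for PARPi in December and from -0.0053 to 0.13 for KD in October. Differently numbered libraries of KD and WT in December reached 0.27. The check therefore showed no clear pairing with WT by number. PARPi was not set against KD in it, so pairing of the samples is not excluded. With the replicate block 1 of the 9 genes was called in PARPi (crq, 0.20, edgeR adjusted p = 0.0451), 1 in KD of December, 3 in KD of October (ush, drpr and Hml at -0.28, edgeR adjusted p = 0.0124) and 2 in the interaction, and lz in PARPi was at 0.0038. With library sizes without the 20 highest genes 0 were called in KD of December, 4 in KD of October (crq, drpr, Hml and ush) and 1 in the interaction (crq). Under it the sign turned, with no call, to 0.019 for lz, 0.00099 for Hml and 0.0051 for drpr in PARPi, 0.12 for ush, 0.042 for zfh1 and 0.097 for crq in KD of December, -0.068 for srp in KD of October, and 0.21 for srp, 0.014 for lz, 0.033 for Hml and 0.12 for eater in the interaction. Between the months nrv2 turned to -0.17 and was called in that direction (edgeR adjusted p = 0.00803). With filterByExpr 1 was called in the interaction (ush; drpr was at -0.27, edgeR adjusted p = 0.0800), ush in KD of December was at 0.0012 and srp in the interaction at 0.048. srp in the interaction was at 0.016 with DESeq2, 0.016 with RLE and 0.00027 with no filter. The cause was not tested.

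Leaving out each library gave 0 to 0 calls among the 9 in PARPi, 1 to 1 in KD of December, 2 to 3 in KD of October, 1 to 3 in the interaction and 6 to 8 between the months. The log2 fold changes whose sign turned in these fits ranged, in PARPi, from -0.36 to 0.35 for lz, -0.084 to 0.11 for Hml, -0.21 to 0.44 for NimC1 and -0.086 to 0.085 for drpr. In KD of December they ranged from -0.045 to 0.068 for srp, -0.063 to 0.043 for ush, -0.20 to 0.42 for lz, -0.075 to 0.0084 for crq and -0.034 to 0.13 for drpr. In KD of October they ranged from -0.025 to 0.025 for srp, -0.091 to 0.60 for lz and -0.17 to 0.037 for eater, and in the interaction from -0.065 to 0.12 for srp, -0.56 to 0.16 for lz, -0.048 to 0.048 for crq and -0.19 to 0.023 for eater. None of these was called.

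Over all genes, 34 were called in PARPi, against 135 with DESeq2, 293 with no filter, 18 with filterByExpr and 496 with the block, and from 4 to 91 without 1 library. In KD of December 907 were called, against 1609 with the block and 251 to 1212 without 1 library, and in the interaction 1784, against 3013 with library sizes without the 20 highest genes. At these depths lz and NimC1 could not show differences smaller than their counting intervals.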
